A study of Homo sapiens with 4 samples.

Results

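Calpains are calcium-dependent cysteine proteases of the cytosol, and calpastatin is their dedicated inhibitor. Of the 57820 genes in the deposited table, 7 are described here, which are CAPN1, CAPN2, CAPNS1, CAPN5, CAPN7, CAPN10 and CAST. They hold 130 of the 196520 listed transcripts and were taken by symbol, with 1 total per gene and library from all its transcripts. The set was selected on measured values of the same contrast, namely the fold changes between the conditions, so the values below are a description and carry no test. All 7 passed the filter on low counts.

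The cells were SK-N-SH, an established line from a human neuroblastoma. RNA-seq covered 4 libraries, 2 of them from cells given a lentivirus that carries the long noncoding RNA *RP5-998N21.4* under the EF1a promoter (OE) and 2 from cells given the same kind of lentivirus with an empty vector (vector control). The control titles read WT, but their treatment label names the empty vector, and all 4 libraries are therefore from transduced cells of 1 line. Nothing in the labels says that the libraries of a condition came from separate cultures, so their spread may be technical.

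The classical calpains are heterodimers. CAPN1 encodes the catalytic large subunit of mu-calpain and CAPN2 that of m-calpain, the names referring to the micromolar and millimolar calcium each needs in the test tube, and CAPNS1 encodes the small regulatory subunit that both share. They cut their substrates at a limited number of sites, and in neurons they are known for trimming spectrin, the CDK5 activator p35 and adhesion proteins after calcium entry. CAPN5, CAPN7 and CAPN10 encode large subunits that lack the classical penta-EF-hand domain and do not need CAPNS1, while CAST is known to block the classical enzymes.

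The stretch of coding sequence around the catalytic cysteine is shown for the 5 proteases, because a transcript without it cannot encode the active site, although one that holds it need not encode the whole enzyme. Each run has 51 bases from the canonical transcript in the lifted GENCODE annotation of GRCh37 (hg19), all on the plus strand, and the capitals mark the cysteine codon. That of CAPN1 spans chr11:64950650-64950976 (exons 3 and 4 of 22), that of CAPN2 chr1:223905515-223931833 (exons 2 and 3 of 21), that of CAPN5 chr11:76804779-76804829 (exon 3 of 13), that of CAPN7 chr3:15269464-15270522 (exons 7 and 8 of 21) and that of CAPN10 chr2:241528811-241528861 (exon 2 of 12). Where 2 exons are named, an intron lies between the coordinates.
CAPN1: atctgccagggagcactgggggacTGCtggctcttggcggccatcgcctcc
CAPN2: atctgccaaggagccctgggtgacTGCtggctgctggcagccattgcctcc
CAPN5: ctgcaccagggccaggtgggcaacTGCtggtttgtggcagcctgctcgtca
CAPN7: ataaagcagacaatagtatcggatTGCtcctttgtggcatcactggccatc
CAPN10: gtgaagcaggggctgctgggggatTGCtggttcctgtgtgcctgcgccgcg
The CAPN1 and CAPN2 runs are identical at 44 of the 51 bases. CAPN5 shares 31 and CAPN10 shares 32 with CAPN1, and CAPN7 shares 26.

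CAST has 4 inhibitory repeats, each with a conserved core that lies over the catalytic cleft of the calpain it blocks. The cores are shown in capitals within runs of 63 bases of the canonical transcript on the plus strand of chromosome 5, at chr5:96075772-96076460 (exons 12 and 13 of 32), chr5:96082076-96083057 (exons 17 and 18), chr5:96090392-96093156 (exons 22 and 23) and chr5:96101787-96101849 (exon 27).
CAST repeat 1: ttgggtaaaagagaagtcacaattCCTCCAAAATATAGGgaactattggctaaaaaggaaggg
CAST repeat 2: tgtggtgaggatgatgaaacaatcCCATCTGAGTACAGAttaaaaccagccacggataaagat
CAST repeat 3: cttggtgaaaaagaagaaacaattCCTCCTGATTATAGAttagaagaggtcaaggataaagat
CAST repeat 4: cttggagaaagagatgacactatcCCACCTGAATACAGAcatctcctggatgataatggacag
Repeats 2 and 3 are the most alike, with 46 of 63 bases identical, and repeats 1 and 2 the least, with 30.

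Of the classical large subunits, CAPN2 was higher in the OE libraries and CAPN1 was lower. CAPN2 (ENSG00000162909.13, chr1:223889295-223963720) had 1735 and 1341 counts in the controls, against 4449 and 4869 with OE. On the counts-per-million scale (CPM, by normalized library size), that is 65.8 ± 12.3 CPM (SD, n = 2) against 173 ± 6.34 CPM, a log2 fold change of 1.39 (standard error 0.162) or 2.63-fold. Both OE libraries lay far above both controls, and the lower of them was still more than the sum of the counts of both controls.

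CAPN1 (ENSG00000014216.11, chr11:64948037-64979477) had 2239 and 2467 counts in the controls and 1535 and 1899 in OE. Its mean was 101 ± 6.25 CPM (SD, n = 2) in the controls and 63.4 ± 3.17 CPM in OE, a log2 fold change of -0.67 (standard error 0.0975), 1.59-fold lower. Both OE libraries lay below both controls, and the gap between the groups was several times the spread within them.

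CAPNS1 (ENSG00000126247.6, chr19:36630855-36641255), the shared regulatory subunit, had 3430 and 3676 counts in the controls and 2851 and 3753 in OE. The deepest library, OE 2, had the highest raw count but not the highest level, since library size is divided out in CPM. In CPM the controls were at 152 ± 6.46 CPM (SD, n = 2) and the OE libraries at 122 ± 11.4 CPM, and the log2 fold change was -0.32 (standard error 0.102). The groups did not overlap in CPM, and the difference was smaller than that of either large subunit.

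**Figure D1:**
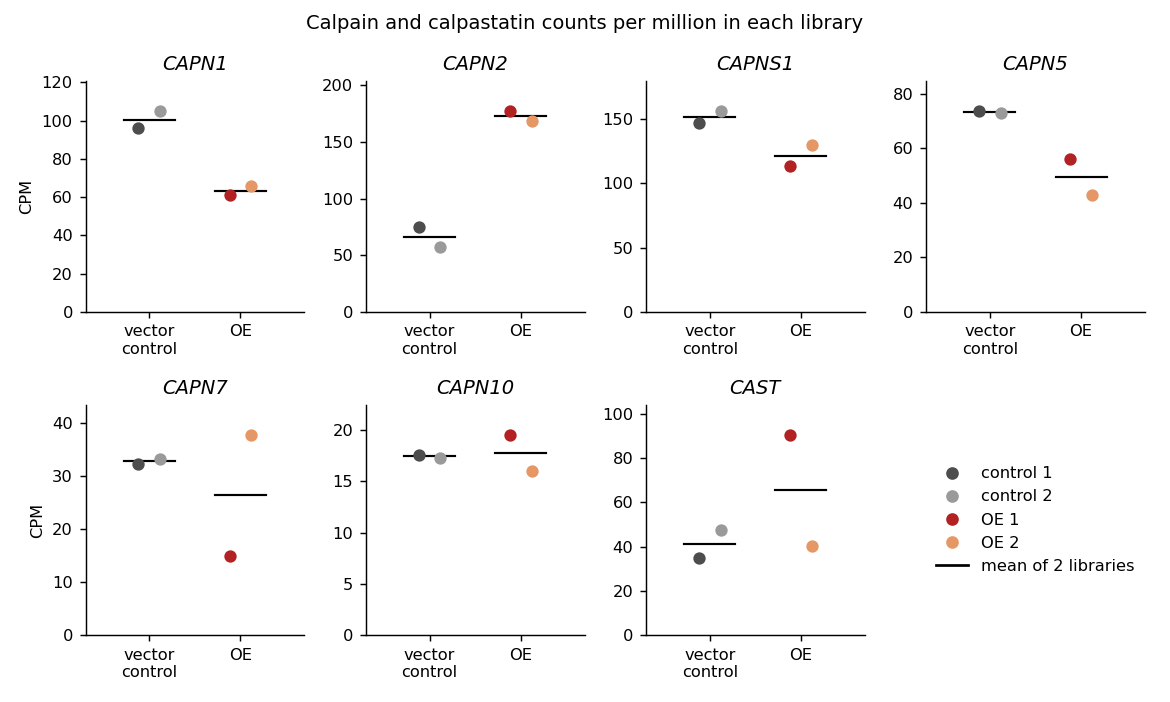
Level in CPM of the 7 genes in each of the 4 libraries (1 point per library, vertical axes from 0, horizontal line at the mean of the 2 libraries of a condition). CAPN2 lies near 173 CPM in OE and near 65.8 CPM in the vector control, CAPN1, CAPNS1 and CAPN5 lie lower in both OE libraries, and the OE libraries are far apart for CAPN7 and CAST.

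The non-classical large subunits showed no common direction. CAPN5 (ENSG00000149260.10, chr11:76778008-76837201), a membrane-associated calpain of the nervous system, had 1714 and 1712 counts in the controls against 1407 and 1237 in OE. Its level was 73.2 ± 0.529 CPM (SD, n = 2) in the controls and 49.4 ± 9.41 CPM in OE, a log2 fold change of -0.57 (standard error 0.165). Both OE libraries were below both controls, although they differed from each other far more than the controls did.

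CAPN7 (ENSG00000131375.5, chr3:15247659-15294423), which interacts with proteins of the endosomal sorting machinery, had 753 and 783 counts in the controls and 376 and 1093 in OE. It was at 32.8 ± 0.697 CPM (SD, n = 2) in the controls and 26.4 ± 16.1 CPM in OE. OE 1 was the lowest and OE 2 the highest of the 4 libraries, so the log2 fold change of -0.31 (standard error 0.488) is smaller than its error. Without OE 1 it was 0.20 and without OE 2 it was -1.13.

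CAPN10 (ENSG00000142330.15, chr2:241526151-241557122), known as a candidate gene for type 2 diabetes, had 410 and 406 counts in the controls and 490 and 464 in OE. The levels were 17.4 ± 0.233 CPM (SD, n = 2) and 17.8 ± 2.47 CPM. The OE libraries lay on either side of the controls, and the log2 fold change was 0.03 (standard error 0.148).

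The inhibitor CAST (ENSG00000153113.19, chr5:95860971-96115299) had 810 and 1119 counts in the controls and 2269 and 1167 in OE. It was at 41.2 ± 9.08 CPM (SD, n = 2) in the controls and 65.4 ± 35.4 CPM in OE, and the log2 fold change was 0.67 (standard error 0.461). Only OE 1 stood above the controls, and OE 2, at 40.3 CPM, lay between them. Without OE 1 the log2 fold change was -0.03.

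Taking the 7 genes by library, both OE libraries were above both controls for 1 gene (CAPN2) and below both for 3 genes (CAPN1, CAPNS1 and CAPN5), while the groups overlapped for the other 3. Among all 20528 tested genes, 27.8% had both OE libraries above both controls and 27.6% had both below. The choice of the 7 genes used this contrast, so nothing is read from that comparison. In bulk RNA, fewer cells of a kind and less RNA per cell cannot be told apart.

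The counts were deposited per transcript, and the transcript that received a gene's counts differed between libraries of 1 condition. For CAPN2, the canonical transcript ENST00000295006 (3366 bases, 21 exons) took 1720 and 1333 counts in the controls and 3559 and 4869 in OE. In OE 1, a further 840 counts lay on ENST00000474026, a 4130-base transcript with no defined coding sequence, which had 0 counts in the other libraries. That transcript lacks the cysteine codon shown above. Counts on CAPN2 transcripts that hold the 51-base run were 1735, 1341, 3609 and 4869, so the OE libraries stayed above the controls.

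For CAPN1, the canonical transcript ENST00000279247 had no counts, and ENST00000527323 and ENST00000533820, coding transcripts of nearly equal length, held most of the counts in different proportions. ENST00000527323 had 545 and 1458 counts in the controls and 0 and 1124 in OE. ENST00000533820 had 1687 and 992 counts in the controls and 1326 and 417 in OE. The shares thus differed as much within a condition as between conditions, and their sum is steadier than either.

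A short coding transcript of CAPN1, ENST00000528396 (571 bases), had 201 counts in OE 1 and at most 4 in the others. A retained-intron transcript, ENST00000528165, had 358 counts in OE 2 and at most 3 elsewhere. With only transcripts that hold the cysteine codon, CAPN1 had 2236 and 2454 counts in the controls and 1529 and 1541 in OE, or 96.0, 104, 60.9 and 53.3 CPM. These include the 571-base transcript, which holds the codon but is too short for the whole protease. The OE libraries were below the controls on this count as well.

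For CAPN7, OE 1 differed from the other libraries in kind. Of its 376 counts, 340 lay on ENST00000457023, an 854-base transcript annotated as a target of nonsense-mediated decay, and 36 on the full-length ENST00000253693 (4348 bases). The full-length transcript had 572 and 783 counts in the controls and 1092 in OE 2. The short transcript ends before the cysteine codon, as does ENST00000418994, another decay transcript that took 151 counts in vector control 1.

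For CAST, 3 different transcripts led in the 4 libraries. In vector control 1, 759 of 810 counts lay on ENST00000509529, a retained-intron transcript of 2 exons and 3066 bases that holds none of the 4 repeats. In vector control 2 and OE 2, ENST00000338252 (2972 bases) led with 1025 and 1041 counts, and in OE 1 ENST00000395813 (4356 bases) had 1999.

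Counts on CAST transcripts that hold repeat 2 were 27 and 1041 in the controls and 2032 and 1072 in OE. Repeats 3 and 4 gave nearly the same counts. The run shown for repeat 1 is whole in ENST00000395813, whereas ENST00000338252 holds its core without the outer bases. The totals of vector control 1, vector control 2 and OE 2 were close to each other (34.8, 47.6 and 40.3 CPM) although their leading transcripts differed, and OE 1 stood apart at 90.4 CPM. The part of the transcript assignment in the totals was not tested.

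The remaining genes were simpler. CAPNS1 had nearly all of its counts on ENST00000246533 (3428, 3672, 2851 and 3749) and CAPN10 on ENST00000391984 (398, 392, 469 and 433). CAPN5 had 1526 and 1474 counts on ENST00000278559 in the controls and 1407 and 862 in OE. A retained-intron transcript of CAPN5, ENST00000527129, had 123 and 111 counts in the controls, 0 in OE 1 and 305 in OE 2, and it starts downstream of the cysteine codon.

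**Figure D2:**
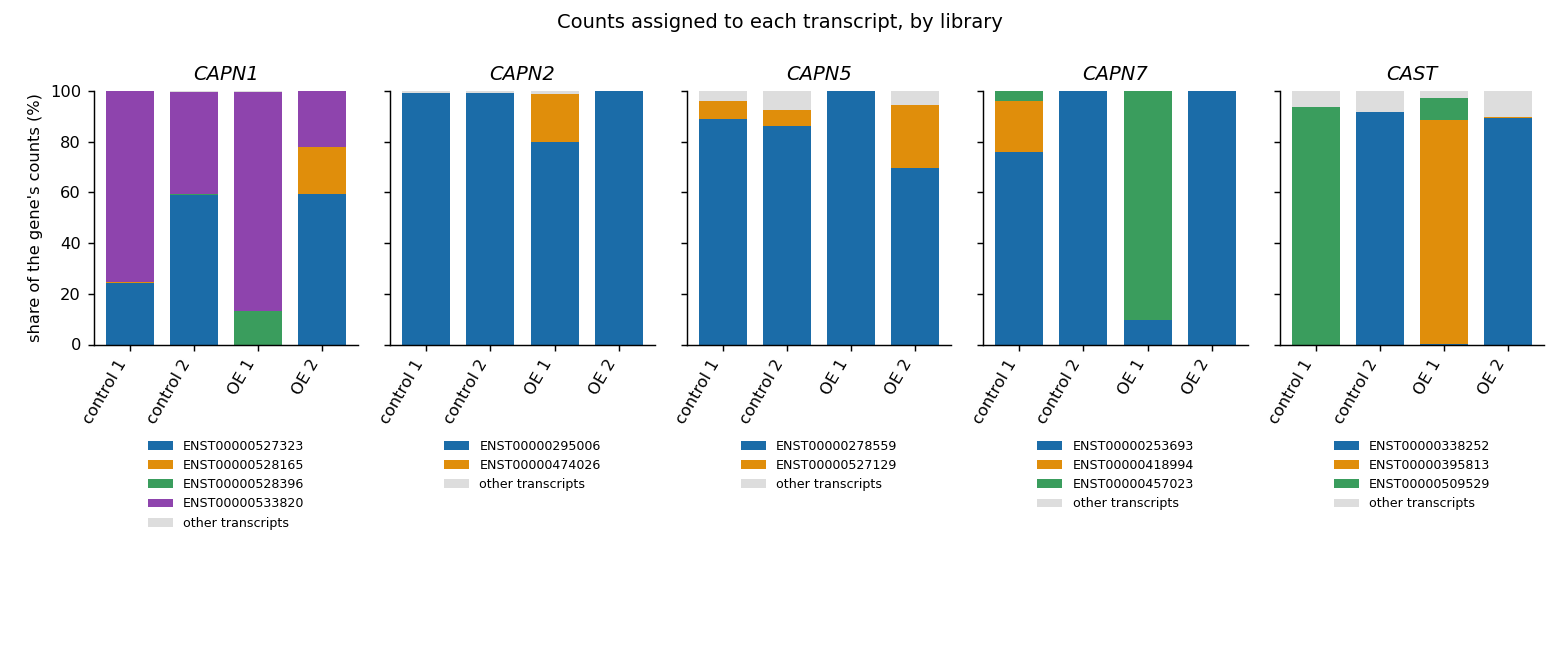
Share of a gene's counts (%) on each transcript with at least 10% in any library, for CAPN1, CAPN2, CAPN5, CAPN7 and CAST, with 1 bar per library and the remaining transcripts in grey. CAPN2 stays almost wholly on ENST00000295006 outside OE 1, while CAPN7 in OE 1 and CAST in vector control 1 and OE 1 sit on transcripts that hold few of the counts in the other libraries.

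Levels can be compared between genes only per length, and transcripts-per-million values (TPM) were computed for this from the annotated transcript lengths. In the controls the order was CAPNS1 (213 ± 5.20 TPM, SD, n = 2), CAPN1 (66.2 ± 3.51), CAPN2 (39.2 ± 8.07), CAST (29.9 ± 7.64), CAPN7 (23.2 ± 11.5) and CAPN10 (14.6 ± 0.292). CAPNS1, CAPN1 and CAPN2 stood apart from each other, but CAPN2 and CAST, and CAST and CAPN7, overlapped between libraries. CAPN7 and CAPN10 differed by less than the SD of CAPN7.

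In OE the order was CAPNS1 (178 ± 20.1 TPM, SD, n = 2), CAPN2 (105 ± 0.683), CAPN1 (55.5 ± 13.8), CAST (40.9 ± 10.5), CAPN7 (25.9 ± 10.5) and CAPN10 (16.4 ± 1.26). CAPN2 thus stood above CAPN1 in both OE libraries and below it in both controls. CAPN1 and CAST overlapped, the lowest CAST library (33.4 TPM) and the highest CAPN7 library (33.3 TPM) nearly met, and CAPN7 and CAPN10 differed by less than the SD of CAPN7. CAPN5 has no TPM because its leading transcript had no length in the annotation used.

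On the TPM scale the CAPN2 difference was as large as in CPM (log2 ratio 1.43), and that of CAPN1 was not. CAPN1 was at 63.7 and 68.6 TPM in the controls and at 65.3 and 45.7 TPM in OE, so OE 1 lay within the controls and the log2 ratio was -0.25. OE 1 is the library with 201 CAPN1 counts on the 571-base transcript. Without that transcript, an alternative added after the values were seen, CAPN1 was at 63.1 and 68.0 TPM in the controls and at 36.4 and 45.7 TPM in OE, with a log2 ratio of -0.67. CAPN7 had a log2 ratio of 0.16 in TPM, of the opposite sign to its log2 fold change in CPM. OE 1 was its lowest library in CPM but its highest in TPM (33.3). Of the 376 CAPN7 counts in OE 1, 340 lay on the 854-base decay transcript, so this TPM counts mostly a transcript without the cysteine codon. Vector control 1 had 151 and 30 counts on such short decay transcripts.

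The balance within the classical system was compared in TPM inside each library. CAPN2 per CAPN1 was 0.704 and 0.487 in the controls and 1.60 and 2.31 in OE. CAPN1 and CAPN2 together were at 109 and 102 TPM in the controls and at 170 and 151 TPM in OE. CAPNS1 per unit of their sum was 1.93 and 2.12 in the controls and 0.963 and 1.27 in OE, so the regulatory subunit was lower relative to the large subunits in both OE libraries. Without the 571-base CAPN1 transcript, OE 1 had a CAPN2 to CAPN1 ratio of 2.87, a sum of 141 TPM and a CAPNS1 ratio of 1.16. OE 2, with 0 counts on that transcript, did not move. Only that transcript was left out. The 840 OE 1 counts on CAPN2 transcript ENST00000474026, without the cysteine codon, were kept. So were the 358 OE 2 counts on the retained-intron CAPN1 transcript ENST00000528165.

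CAST per unit of the summed large subunits was 0.225 and 0.346 in the controls and 0.284 and 0.221 in OE. The conditions overlapped by this measure, but in vector control 1 it counts mostly the retained-intron transcript without inhibitory repeats (759 of 810 counts). These are RNA ratios, and no protein or activity was measured in these libraries.

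**Figure D3:**
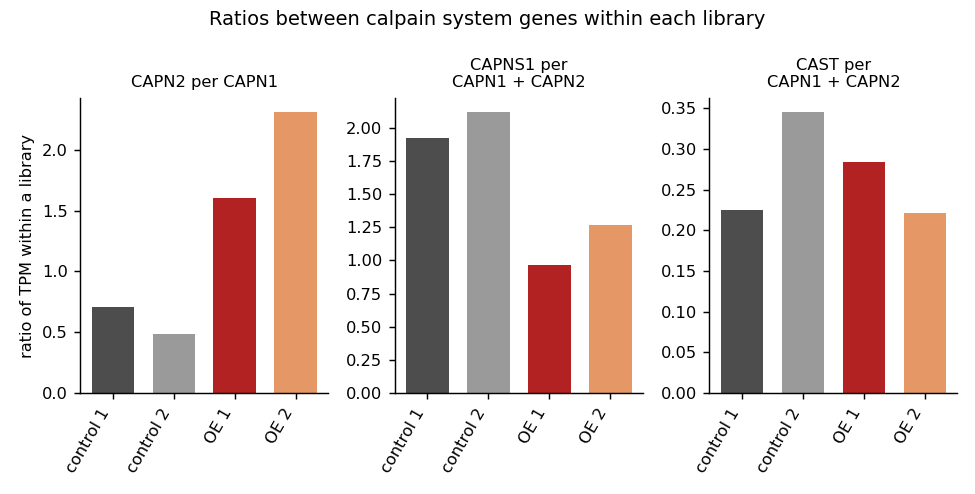
Ratios of TPM within each library (bars, 1 per library, axes from 0) for CAPN2 over CAPN1, CAPNS1 over the sum of CAPN1 and CAPN2, and CAST over the same sum. The OE libraries lie at 1.60 and 2.31 for CAPN2 over CAPN1 against 0.704 and 0.487 in the controls, and the CAST ratios overlap. With only the 571-base CAPN1 transcript left out, OE 1 is at 2.87.

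The promoter windows of CAPN1 and CAPN2 are shown because these large subunits differed between the conditions in opposite directions. They come from RefSeq (GRCh38.p14), on the plus strand, from 250 bases before to 50 after the start of the canonical transcript, at chr11:65181678-65181977 and chr1:223712289-223712588. Capitals mark GC boxes (GGGCGG on either strand).
CAPN1 promoter: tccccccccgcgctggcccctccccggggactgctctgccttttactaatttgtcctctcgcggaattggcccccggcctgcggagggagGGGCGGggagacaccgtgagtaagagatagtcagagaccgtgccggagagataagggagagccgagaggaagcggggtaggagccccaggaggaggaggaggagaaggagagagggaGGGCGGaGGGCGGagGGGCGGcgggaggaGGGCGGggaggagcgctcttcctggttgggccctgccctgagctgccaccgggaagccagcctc
CAPN2 promoter: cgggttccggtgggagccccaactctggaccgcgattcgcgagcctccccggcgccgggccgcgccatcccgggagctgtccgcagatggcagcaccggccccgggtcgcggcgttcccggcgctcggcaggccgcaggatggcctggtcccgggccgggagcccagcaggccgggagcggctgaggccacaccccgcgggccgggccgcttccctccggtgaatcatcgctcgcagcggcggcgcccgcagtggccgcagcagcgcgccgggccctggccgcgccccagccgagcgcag
The CAPN1 window has 5 GC boxes and the CAPN2 window 0, although its GC content is the higher (79.7% against 69%). The 5 boxes belong to the start of ENST00000279247, the canonical CAPN1 transcript, which had no counts. Other CAPN1 windows, at chr11:65181123-65181422 and chr11:65181544-65181843, have 0 and 1, and another CAPN2 window has 0. The number for CAPN1 therefore depends on the start chosen. The windows at the canonical starts of CAPNS1, CAPN7, CAPN10 and CAST have 4, 5, 3 and 2. Of all 35116 RefSeq windows, 45% hold a GC box. The core of the interferon-stimulated response element, searched on both strands, is in 3.57% of all windows and in 0 of those of the 6 genes with an entry, and the TATA box (TATAAA, both strands), present in 11.5%, is only in another CAST window. CAPN5 had no entry. These matches describe letters in a window and not binding.

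By a fixed measure of likeness, the Euclidean distance of log2 CPM centred over the 4 libraries, 11457 genes whose mean reached 10 CPM were compared with CAPN1 and CAPN2. The genes nearest to CAPN1 were ADAM19 (distance 0.0394), S1PR5 (0.0444) and GAS2L1 (0.0469). ADAM19, a membrane metalloprotease, had 2863 and 3107 counts in the controls and 1915 and 2339 in OE. Nearest to CAPN2 were THSD7A (0.0966), IFIT1 (0.138) and NTPCR (0.139). THSD7A, a transmembrane protein with thrombospondin repeats, had 1201 and 981 counts in the controls and 3384 and 3545 in OE, and IFIT1, an interferon-induced gene, had 252 and 177 against 618 and 624.

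Some members share exons with other genes. CAST shares 299 exonic bases with ERAP1, an aminopeptidase gene on the opposite strand with 947 and 939 counts in the controls and 1348 and 1526 in OE, and 378 with the antisense gene CTC-506B8.1 (0 to 15 counts). CAPN1 shares 433 bases with the antisense gene AP003068.23 (76 to 162 counts). CAPN10 shares 654 with GPR35 on its own strand, which had 84 and 98 counts in the controls and 172 and 179 in OE. The use of strand in counting is not given in the sources used here, and without it reads from an antisense partner cannot be told apart.

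Of the 10 other calpain family genes, only CAPN15 had more than 42 counts in any library. CAPN15, a large non-classical calpain, had 2582 and 2740 counts in the controls and 3144 and 4451 in OE (log2 fold change 0.30, standard error 0.131, edgeR adjusted p = 0.312). Without OE 2 its log2 fold change was 0.14. The muscle calpain CAPN3 had 0 and 5 against 13 and 14 counts, and CAPN6, which lacks the catalytic cysteine, 17 and 8 against 36 and 42. CAPN6 was the gene of this list with an unadjusted p under 0.05 (log2 fold change 1.42, edgeR adjusted p = 0.22). Over all tested genes, 10.1% were higher and 10.7% lower at that p. DESeq2 called none of this list. Those of CAPN12 were 22 and 23 against 28 and 11, those of CAPNS2 14 and 21 against 5 and 16, and those of CAPN14 5 and 12 against 4 and 6. CAPN9 had 0, 6, 3 and 2 counts, CAPN11 3 counts in OE 1 alone and CAPN13 4 counts in OE 2 alone. CAPN8 was at 0 in every library, and a count of 0 allows up to 3 counts. Of the 5 genes that could be tested, 3 were higher and 2 lower, with a median log2 fold change of 0.30, which is the value of CAPN15, against 0.01 over all tested genes.

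Over all 20528 tested genes, edgeR's quasi-likelihood test called 0 genes (0%) at an adjusted p under 0.01 and a log2 fold change beyond 0.5. At an unadjusted p under 0.05, 10.1% were higher and 10.7% lower in OE. DESeq2 on the same genes called 4.35% higher and 4.42% lower, and limma-voom called 0. The counts for the lists below are read beside these shares. The total count per library ranged from 23785164 to 28307591, the normalization factors from 0.976 to 1.02 and mitochondrial genes from 6.01% to 6.50% of counts. *RP5-998N21.4* had 32 and 33 counts in the controls and 2407 and 2808 in OE, although 80.4% of its 31-base words also occur in a transcript of RP11-439A17.9, which had 0 and 4 against 4515 and 5365, so these genes may share reads.

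The 4 penta-EF-hand genes outside the calpains were tested with their partner PDCD6IP. All 4 had log2 fold changes below 0 and PDCD6IP one above 0 (median of the 5 genes -0.04). The groups overlapped for all but SRI. The log2 fold changes of PDCD6, PEF1 and GCA (-0.04, -0.04 and -0.06) were smaller than their standard errors. Without OE 2 the median was 0.03. None of the 5 reached an unadjusted p of 0.05 or a DESeq2 call. PDCD6IP had 424 counts in vector control 2 against 2916 to 4016 in the other libraries. Penta-EF-hand proteins bind calcium through the fold that CAPNS1 also has. SRI, which encodes sorcin, had 774 and 655 counts in the controls and 615 and 670 in OE (log2 fold change -0.36, standard error 0.135, edgeR adjusted p = 0.261), and its log2 fold change was -0.23 without vector control 1.

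Of 22 cytoskeletal and adhesion substrates of calpain, 21 were tested, with 9 higher and 12 lower and a median log2 fold change of -0.07. At an unadjusted p under 0.05, 2 were higher and 4 lower, and DESeq2 called 2 higher and 0 lower. ANK2, the neuronal ankyrin-B, had 838 and 611 counts in the controls and 1780 and 2121 in OE, a log2 fold change of 1.22 (standard error 0.193, edgeR adjusted p = 0.095). TLN1, encoding talin, had 4900 and 2849 against 2363 and 2806 (log2 fold change -0.79, edgeR adjusted p = 0.261), and without vector control 1 its log2 fold change was -0.35. VIM had 31466 counts in OE 1 against 8111 to 10869 in the other libraries, and its log2 fold change of 1.22 was 0.11 without OE 1. VCL, encoding vinculin, had 1587 in OE 2 against 6568 to 8620, and its log2 fold change of -1.21 was -0.48 without OE 2.

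Of 27 signalling and cell death substrates, 24 were tested, with 12 higher and 12 lower and a median of 0.01. At an unadjusted p under 0.05, 4 were higher and 4 lower, and DESeq2 called 1 in each direction. BCL2, an inhibitor of apoptosis, had 827 and 772 counts in the controls and 1428 and 1631 in OE (log2 fold change 0.73, standard error 0.0943, edgeR adjusted p = 0.0779). PPP3CB, a catalytic subunit of calcineurin, had 901 and 841 against 573 and 767 (log2 fold change -0.59, standard error 0.127, edgeR adjusted p = 0.13). XIAP had 889 counts in OE 2 against 3695 to 3902 in the other libraries, and its log2 fold change of -0.77 was -0.03 without OE 2.

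Calcium sets calpain activity, and 22 of 23 genes for calcium entry, release and removal were tested. Of these, 7 were higher and 15 lower, with a median log2 fold change of -0.26. At an unadjusted p under 0.05, 4 were higher and 6 lower, and DESeq2 called 2 higher and 4 lower. The DESeq2 calls were SLC8A2 and CACNA1B, higher, and ATP2A2, ATP2B4, SLC8A1 and CALM3, lower. None of the genes described next, which were named by size of change, was among these calls. ITPR1 and ITPR3 encode calcium release channels of the endoplasmic reticulum. ITPR1 had 637 and 685 counts in the controls against 902 and 1094 in OE (log2 fold change 0.38, edgeR adjusted p = 0.164), and ITPR3 had 514 and 393 against 678 and 808 (0.50, edgeR adjusted p = 0.241). Without vector control 2 the log2 fold change of ITPR3 was 0.31. ORAI3, a subunit of store-operated calcium channels, had 2743 and 3143 against 1602 and 2632 (log2 fold change -0.70, edgeR adjusted p = 0.202). ATP2C1, a Golgi calcium pump, had 974 and 1119 against 925 and 362, and its log2 fold change of -0.86 was -0.28 without OE 2.

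Of 8 membrane repair genes, a process that needs calpain at the site of injury, 6 were tested, with 0 higher and 6 lower and a median of -0.13. At an unadjusted p under 0.05, 1 was lower, and DESeq2 called the same number lower. CAV1, encoding caveolin-1, had 13189 counts in vector control 1 against 3725 to 4233 in the other libraries, and its log2 fold change of -1.32 was -0.23 without that library. ANXA5 had 4331 and 4205 against 4083 and 4819 (log2 fold change -0.15, edgeR adjusted p = 0.315).

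Of 12 cathepsins and cystatins, the lysosomal cysteine and aspartic proteases and their inhibitors, 10 were tested, with 2 higher and 8 lower and a median of -0.24. None reached an unadjusted p of 0.05 or a DESeq2 call. CTSL had 857 and 733 counts in the controls and 674 and 530 in OE (log2 fold change -0.59, standard error 0.238, edgeR adjusted p = 0.282), and its log2 fold change was -0.34 without OE 2. CTSD had 942 counts in OE 2 against 8703 to 9562 in the other libraries, and its log2 fold change of -1.07 was -0.20 without OE 2.

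**Figure D4:**
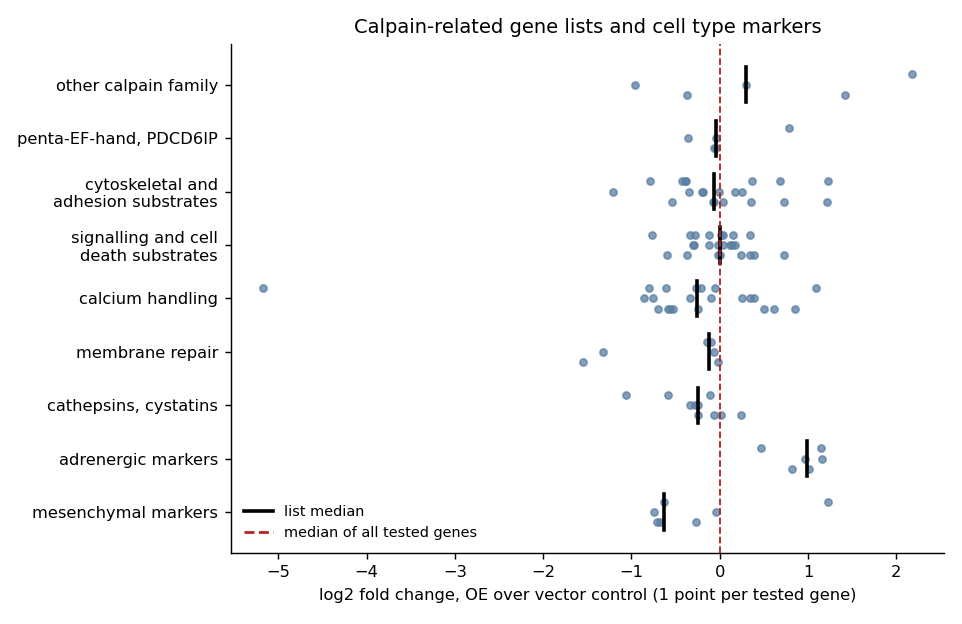
Log2 fold change, OE over vector control, of every tested gene (points) in the calpain-related lists and the neuroblastoma markers, with the list median (black) and the median of all tested genes (dashed). The medians of the calpain-related lists lie between -0.26 and 0.30, the adrenergic median at 0.99 and the mesenchymal median at -0.64, and the point beyond -5 is CALM2.

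CALM2, named here after its values were seen, had 7200 counts in vector control 2 and 75 to 140 in the other libraries. Like VIM, VCL, XIAP, CAV1 and CTSD, it shows that single libraries carried large departures of a whole gene, as OE 1 did for CAPN7 and CAST.

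The cell line was checked against markers of its known states. Neuroblastoma lines hold adrenergic and mesenchymal cells. Of 7 adrenergic markers, TH was listed at 0 in every library and the other 6 were tested. All 6 had both OE libraries above both controls (median log2 fold change 0.99), against the 27.8% of all tested genes given above. None was called by edgeR at an adjusted p under 0.01, 4 were higher at an unadjusted p under 0.05 and DESeq2 called 3 higher. Their summed level was 360 to 430 CPM in the controls and 640 to 673 CPM in OE. Of 7 mesenchymal markers, 5 had both OE libraries below the controls and 1 above (median -0.64), against 27.6% and 27.8% of all tested genes. None was called by edgeR, 4 were lower at an unadjusted p under 0.05 and DESeq2 called 3 lower. They had a summed level of 2214 to 2406 CPM against 1745 to 2704 CPM. Without VIM, left out after the values were seen because of its count in OE 1, the sums were 2058 and 1864 CPM in the controls and 1450 and 1369 CPM in OE. These levels moved with the calpain differences, and their part in them was not tested. Of 8 markers of other tissues, 7 were listed, and none exceeded 1.28 CPM in any library.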

How the data were processed

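RNA-seq libraries of SK-N-SH cells were compared as OE against vector control, with condition and number taken from the labels. Per the paper's methods, the authors used Trimmomatic for trimming and Bowtie2 for mapping, to hg19. The submitters' processing notes name Bowtie2 2.0.4, Picard 2.21.6, StringTie 2.1.6 and DESeq2. The tool that made the counts, the annotation release and the use of strand are not given in the sources used here. The deposited values are whole-number counts per transcript without normalization.

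Here, counts were summed per gene, filtered with filterByExpr, normalized by TMM and fitted with edgeR 4.0.16 (quasi-likelihood, R 4.3.3, Benjamini-Hochberg adjustment over 20528 genes, no covariates). The study's DESeq2 (version 1.42.0 here) and limma-voom (limma 3.58.1) were alternatives, beside other normalizations, filters, a replicate block, left-out libraries, the leading transcript, coding transcripts and TPM. TPM used GENCODE lengths, which cover 93.2% to 93.7% of counts. The scripts were tested on simulated data that were less variable than these, whose common dispersion was 0.122. That checks the code and not the power of the fit here. Coding runs came from the longest open reading frame of canonical transcripts, and figures from matplotlib 3.10.9.

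The members and lists were chosen with earlier results of these data known. Named were all members, other calpain genes with counts, genes with shared exons, per list and direction the 2 tested genes of largest change whose mean reached 10 CPM and whose groups did not overlap, the 3 genes most like CAPN1 and CAPN2, and transcripts with at least 10% of a member's counts. The DESeq2 calls among the calcium and membrane repair genes were named after the values were seen. A count of 0 was read as up to 3 counts, which covers counting error only. The result of 1 marker gene is not reported here.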

Additional observations from a re-analysis of the deposited data

How the results depend on the processing

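Of 82 member values recomputed under the alternatives, 72 moved by less than the spread between libraries and 10 by more, and all 63 list medians moved by less. The number of genes called by edgeR, 0 as reported, was also 0 under RLE and upper-quartile normalization and a mean of at least 10 counts. It was 0 too with limma-voom, with the replicate block and without mitochondrial genes. It was 9 with every gene of at least 1 count in total, 1 with the leading transcript, 122 at an adjusted p under 0.05 and 1800 with DESeq2. In the lists, DESeq2 called 2, 2, 6 and 1 of the cytoskeletal, signalling, calcium and membrane repair genes, and an unadjusted p under 0.05 gave 6, 8, 10 and 1, and 1 of the other calpains, while DESeq2 called 3 adrenergic markers higher and 3 mesenchymal markers lower, against 4.35% higher and 4.42% lower over all tested genes. The median log2 fold change of the 7 genes was -0.31, between -0.39 and -0.12 when a library was left out, -0.32 with the replicate block, and 0.16 in TPM, which has no value for CAPN5. Replicate numbers are shared between the conditions only as numbers: the deviations of same-numbered libraries correlated at -0.02 across genes. The main fit has 2 residual degrees of freedom and the block leaves fewer, so its 0 calls are no sign of stability. Among single genes, CAPN1 was -0.77 with the leading transcript and -0.79 with coding transcripts, and CAST was -0.27 and 1.33. CAPN5 gave no value with coding transcripts or TPM. In TPM CAPN1 was -0.25, and -0.67 without its 571-base transcript. The cause of the other moves was not tested. Member counts ran from 376 to 4869 per library, and for CAPN7 and CAST the spread between the OE libraries was far larger than counting error.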
